A study of Mus musculus with 8 samples.

Results

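The potassium, HCN and calcium channel genes are described here across 8 mouse arrays. They are all probe sets annotated to 1 gene only whose symbol starts with Kcn, with Hcn and a digit, or with Cacna, Cacnb or Cacng, leaving out Kcnq1ot1, the antisense RNA of an imprinted locus. This name rule took 218 of 45037 probe sets and 109 of 18193 genes, of which 83 were Kcn genes, 2 Hcn genes and 24 calcium channel genes. No member was dropped for low signal. The RNAs Kcnmb4os1 and Kcnmb4os2 came in by their names, which place them on the strand opposite to Kcnmb4. They encode no subunit and are counted as their own role.

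Total RNA from mouse was hybridised to Affymetrix Mouse Genome 430 2.0 arrays, 4 of a control group called Ctrl and 4 of a group called Exp, each numbered 1 to 4. The labels give no genotype, strain, treatment or age for either group, so what limits Exp as a model is not known here. One label field names the trigeminal ganglion as the tissue, and another names brain with adrenal medulla. The labels do not say whether the arrays stand for separate animals. The p-values therefore measure the spread between arrays only, which may be technical.

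Potassium channels set the resting potential of a neuron and end its action potentials, and the voltage-gated, calcium-activated, inward rectifier and K2P leak families divide these tasks. HCN channels open on hyperpolarisation and depolarise the cell between spikes. Voltage-gated calcium channels are built from a pore-forming alpha1 subunit with alpha2delta and beta subunits, and admit the calcium that triggers transmitter release. In trigeminal neurons, which carry sensation from the face, these channels shape the firing of neurons for touch, temperature and pain. Surrounding satellite glia take up potassium through their own inward rectifier.

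Values are log2(signal + 16) after quantile normalization, and differences are Exp minus Ctrl on that scale. Each gene is represented by its brightest probe set, judged by mean signal across the 8 arrays. Signals of different probe sets also depend on how well their probes bind, so levels are not compared between genes. The 40th percentile of all probe sets, a value of 8.45 or a signal of about 333, serves as a mark of low signal, and 66 member genes lay above it and 43 below. Below that mark the pseudocount of 16 compresses fold changes.

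All 17 measured of the 18 listed sensory neuron markers lay above the low-signal mark, against 3 of 8 central neuron and 5 of 9 chromaffin and sympathetic markers. Those above it included chromaffin and sympathetic Chgb, Chga and Th, with Ctrl means of 14.38, 12.74 and 12.38. Central neuron Neurod6, at 11.67 in Ctrl, was also above it. These counts do not settle which tissue was used. The sensory neuron markers differed by a median of 0.00 between groups. Markers of other cells did move with some arrays. Skeletal muscle markers had 18 of 20 genes higher in Exp, with summed signals of 9159 to 13829 in Ctrl and 8522 to 72982 in Exp, the highest in Exp 3. Myh3 alone gave 41548 of the sum in Exp 3. Satellite and Schwann glia markers had 12 of 13 genes lower in Exp, with summed signals of 192617 to 224242 in Ctrl and 181544 to 209670 in Exp. Fabp7, the gene that was not lower, alone gave 88063 to 98588 of these sums in Ctrl and 93182 to 106741 in Exp. The sums thus depend strongly on single bright genes. In tissue RNA, fewer cells of a type and less RNA per cell cannot be told apart. No marker signal was 0. With 4 arrays in each group, their number limits how precise any difference can be.

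No potassium, HCN or calcium channel gene passed the test between Exp and Ctrl: 0 of 218 member probe sets were called by limma at a 5% false discovery rate, and the smallest adjusted p of a member was 0.785. Of all probe sets 0% were called. The members' median difference was 0.01, beside -0.01 over all genes, and 58 of 109 members were higher in Exp, or 53.2%, beside 46.6% of all genes.

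At an unadjusted p under 0.05 limma gave 4 of 109 members, or 3.67%, where the background was 3.99%. They were the inward rectifier genes Kcnj5, Kcnj4 and Kcnj13, higher in Exp, and Kcnip4, a Kv4 auxiliary subunit, lower in Exp, beside backgrounds of 1.82% for higher and 2.17% for lower genes. The 4 Exp values lay wholly on one side of the 4 Ctrl values in 3 members, or 2.75%, where the background was 2.4%. These were Kcnj5 and Kcnj4, higher, and Kcnip4, lower, beside backgrounds of 1.1% and 1.3%. Both shares lay near the background. The number with p under 0.05 was 7 without Ctrl 3 and 7 without Exp 2, with backgrounds of 3.45% and 4.03%. The number of members whose groups were apart was 5 without Ctrl 1, 5 without Ctrl 2, 6 without Ctrl 3, 8 without Ctrl 4, 7 without Exp 2, 6 without Exp 3 and 8 without Exp 4. Fewer arrays part more often, and the backgrounds of these were 4.4% to 6.18%.

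**Figure D1:**
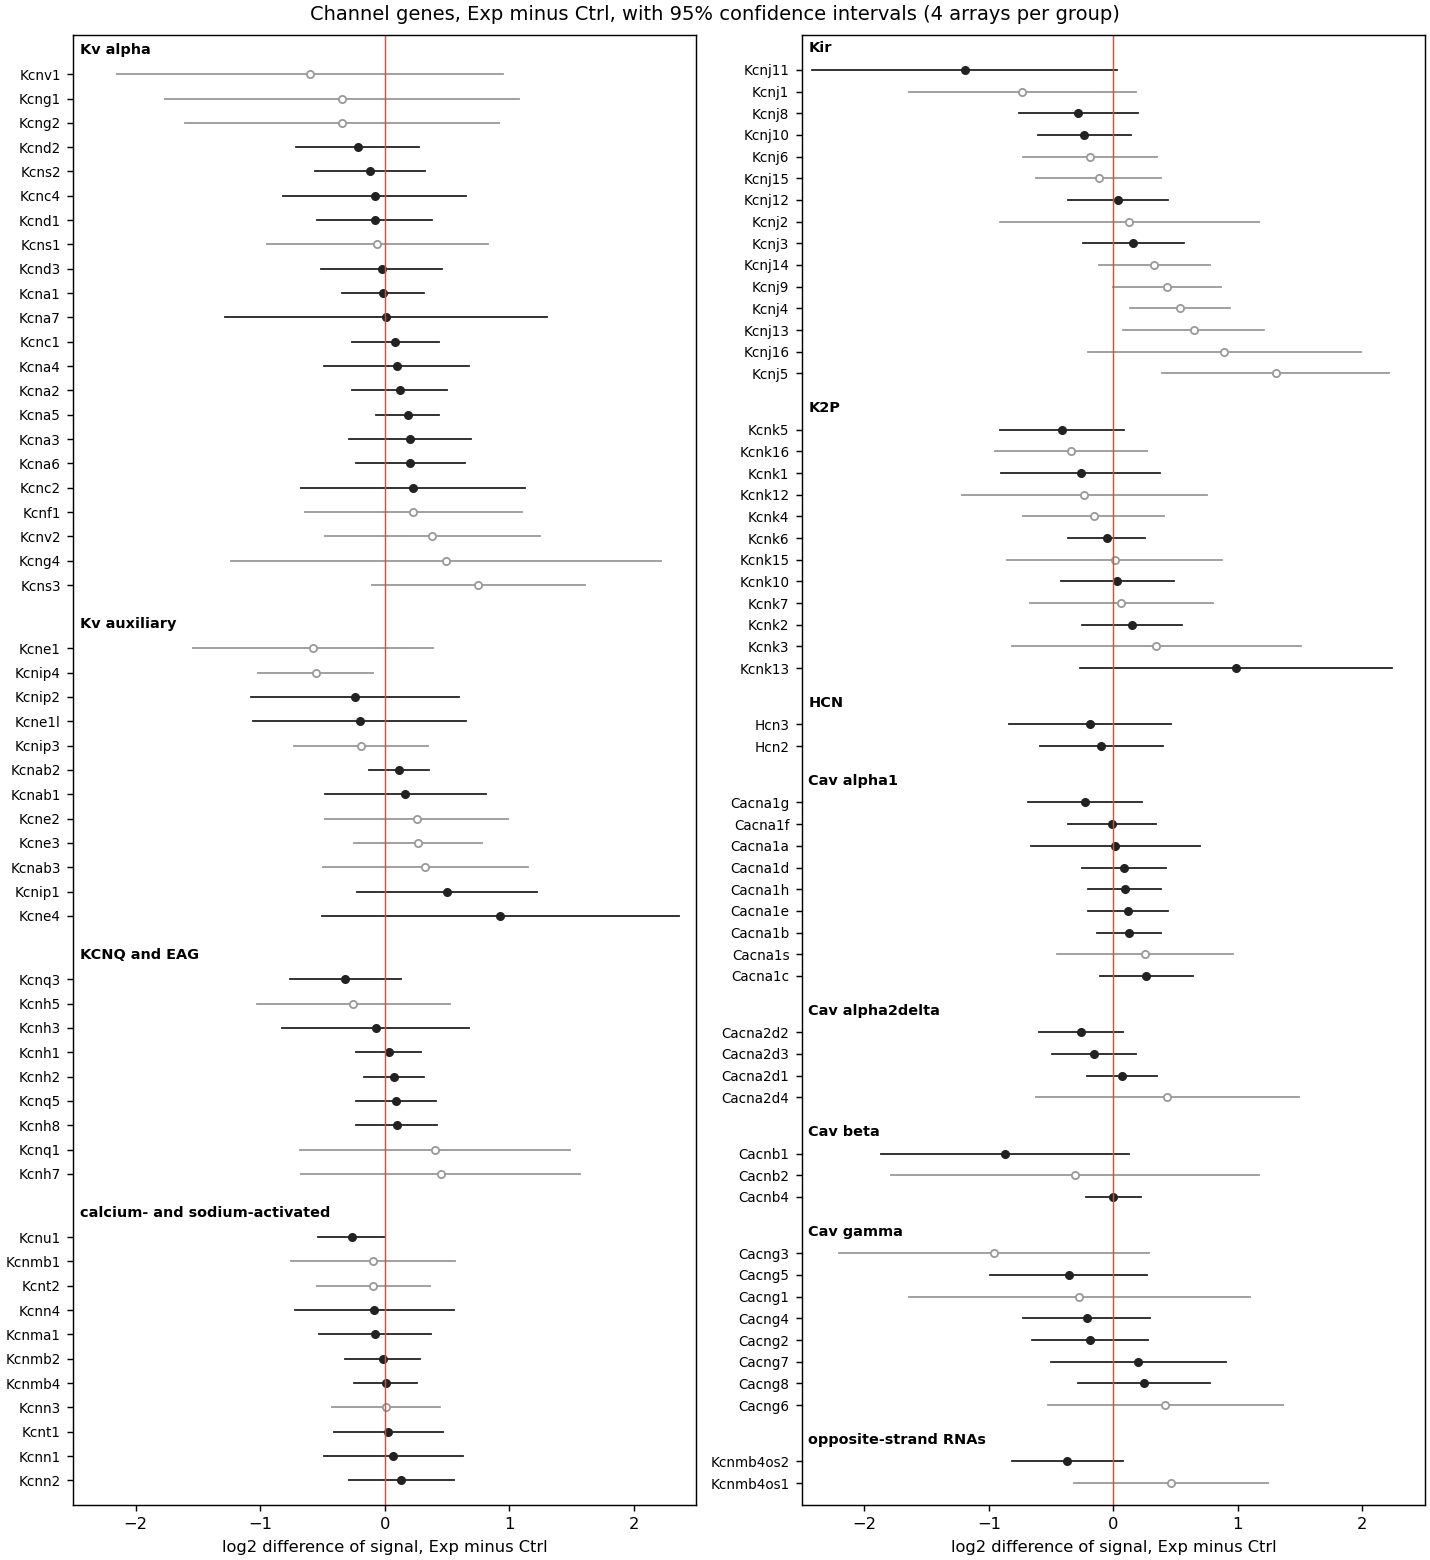
Difference between Exp and Ctrl for all 109 channel genes, by role, in log2 units, with points for the limma estimate and lines for its 95% confidence interval (4 arrays per group). Filled black points are genes above the low-signal mark and open grey points genes below it. The line at 0 is crossed by all intervals but those of Kcnip4, Kcnj4, Kcnj13 and Kcnj5.

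The precision differed with signal. Among the 66 members above the low-signal mark the median standard error was 0.19. For 57 of them, or 86.4%, the 95% confidence interval lay within a doubling and a halving of signal + 16, beside 94% of all genes above the mark. Among the 43 members below the mark the median standard error was 0.37. Such an interval was found for 17, or 39.5%, beside 31.7% of all genes below the mark. All 4 members with an unadjusted p under 0.05 lay below the mark, or 9.3% of the 43, beside 7.35% of all genes below it. Above it 0 of 66 reached that p by limma, beside 2.56% of all genes above the mark. The median standard deviation within groups was 0.278 for members above the mark and 0.586 for those below, against 0.193 and 0.651 for all genes. The most even member over the 8 arrays was Cacnb4, a beta subunit of neuronal calcium channels, whose whole range was 0.131.

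**Figure D2:**
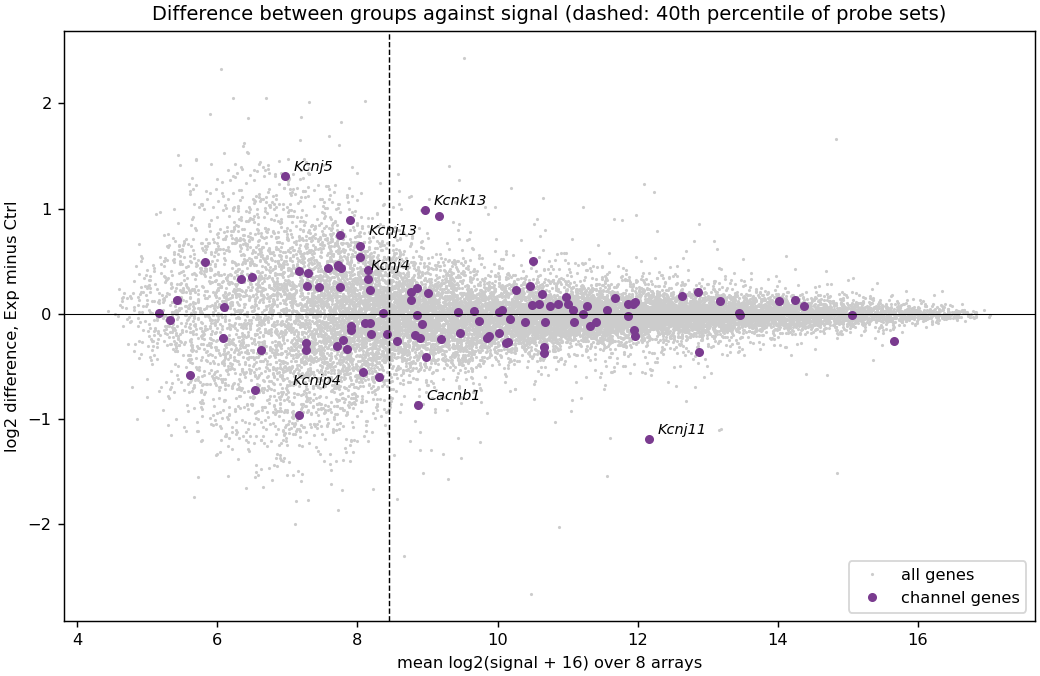
Difference between Exp and Ctrl in log2 units against the mean log2(signal + 16) over 8 arrays, 1 point per gene, with all 18193 genes in grey and the 109 channel genes in purple. Genes left of the dashed line, at 8.45, scatter more widely, and Kcnj11 at -1.20 is the member farthest from 0 on its right.

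The voltage-gated potassium channel alpha subunits of the Kv family had 12 of 22 genes higher and 10 lower in Exp, with a median of 0.05 and a range of -0.60 to 0.75. None of them reached an unadjusted p of 0.05. Kcna1 and Kcna2 encode the Kv1 subunits that cluster beside the nodes of myelinated axons and restrain repetitive firing. Kcna1 had values of 13.42, 13.67, 13.40 and 13.37 in Ctrl 1 to 4 and 13.25, 13.29, 13.61 and 13.64 in Exp 1 to 4, a difference of -0.01 (SE 0.14, 95% confidence interval -0.34 to 0.31). Kcna2 had values of 13.18, 13.31, 13.02 and 12.92 in Ctrl 1 to 4 and 12.86, 13.46, 13.27 and 13.34 in Exp 1 to 4, a difference of 0.12 (SE 0.16, 95% confidence interval -0.26 to 0.50). The groups overlapped in both genes, and both intervals lay within a doubling and a halving. Their second-brightest probe sets gave -0.01 (SE 0.14) and 0.13 (SE 0.14), close to the brightest. The dimmer ones gave 0.22 (SE 0.18) and 0.30 (SE 0.37) for Kcna1, and -1.06 (SE 0.57) and -0.30 (SE 0.44) for Kcna2.

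Kcna4, of an A-type current, differed by 0.10 (SE 0.25), Kcna6 by 0.21 (SE 0.19), Kcna3 by 0.20 (SE 0.21) and Kcna5 by 0.18 (SE 0.11). Kcna5 ranged from 10.42 to 10.69 in Ctrl and 10.66 to 10.79 in Exp, and its standard deviation within groups, 0.0944, was among the smallest of the members. Of the Kv3 genes, which allow fast spiking, Kcnc1 differed by 0.09 (SE 0.15), Kcnc2 by 0.23 (SE 0.39) and Kcnc4 by -0.08 (SE 0.32).

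Kcnd3, a Kv4 subunit of the subthreshold A-type current, had values of 11.71, 12.25, 11.75 and 11.77 in Ctrl 1 to 4 and 12.16, 11.41, 12.10 and 11.72 in Exp 1 to 4. These overlapped fully, with a difference of -0.02 (SE 0.21, 95% confidence interval -0.51 to 0.46). The 4 probe sets of Kcnd3 ran from -0.02 to 0.48. The other Kv4 genes, Kcnd1 and Kcnd2, differed by -0.08 (SE 0.20) and -0.22 (SE 0.21). Of the electrically silent subunits that modify Kv2 channels, Kcns2 differed by -0.11 (SE 0.19), and Kcns3 had 7.53, 6.33, 8.15 and 7.51 in Ctrl 1 to 4 and 8.15, 8.33, 7.70 and 8.35 in Exp 1 to 4, a difference of 0.75 (SE 0.37, 95% confidence interval -0.10 to 1.61). Exp 2 and Exp 4 lay above all Ctrl arrays and Ctrl 2 below all others, without which the difference was 0.40. The gene's second probe set differed by -0.94 (SE 0.62), in the opposite direction. Kcng4 had values of 5.40, 6.24, 5.61 and 5.04 in Ctrl 1 to 4 and 8.30, 6.19, 5.12 and 4.66 in Exp 1 to 4, and its difference of 0.49 (SE 0.75) rested on Exp 1, without which it was -0.25. Its signal lay below the mark in all 8 arrays.

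Auxiliary subunits and regulators of Kv channels had 7 of 12 genes higher and 5 lower, with a median of 0.14. Kcnip4, a KChIP calcium sensor that binds Kv4 channels, had values of 8.50, 8.26, 8.14 and 8.52 in Ctrl 1 to 4 and 7.31, 8.04, 8.10 and 7.76 in Exp 1 to 4. All 4 Exp arrays lay below all 4 Ctrl arrays, although Exp 3 and Ctrl 3 were only a little apart. The groups overlapped without quantile normalization, with median centring, and with its probe sets averaged. Its means were 8.36 ± 0.19 in Ctrl and 7.80 ± 0.36 in Exp (SD, n = 4 each), a difference of -0.55 (SE 0.20, 95% confidence interval -1.02 to -0.09), and it did not pass limma's test (unadjusted p = 0.0250, adjusted p = 0.997). The unadjusted p was over 0.05 with a replicate block, with trend and robust variances, with probe sets averaged, and without Ctrl 1, Ctrl 4 or Exp 4. Its other probe sets differed by 0.16 (SE 0.28) and -0.22 (SE 0.43), so the 3 probe sets did not share a direction. The remaining KChIP genes, Kcnip1, Kcnip2 and Kcnip3, differed by 0.50 (SE 0.31), -0.24 (SE 0.36) and -0.19 (SE 0.23).

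Of the cytoplasmic beta subunits of Kv1 channels, Kcnab2 ranged from 11.83 to 11.99 in Ctrl and 11.92 to 12.13 in Exp and differed by 0.11 (SE 0.10, 95% confidence interval -0.12 to 0.35). Kcnab1 ranged from 12.25 to 12.91 in Ctrl and 12.23 to 13.42 in Exp, with Exp 3 the highest, and differed by 0.17 (SE 0.28). Kcnab3, below the low-signal mark, differed by 0.33 (SE 0.36). Kcne4, of the single-span KCNE subunits, differed by 0.93 (SE 0.62), with 1 low array, Ctrl 2, at 6.67 and the other 7 between 9.10 and 10.001.

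The KCNQ and EAG families had 6 of 9 genes higher and 3 lower, with a median of 0.07. Kcnq3, a subunit of the M current that holds neurons below threshold, had values of 10.82, 10.98, 10.80 and 10.67 in Ctrl 1 to 4 and 9.95, 10.75, 10.67 and 10.64 in Exp 1 to 4. Exp 1 was the lowest array by a wide margin, and the difference was -0.32 (SE 0.19, 95% confidence interval -0.76 to 0.13), or -0.13 without Exp 1. The gene's other probe set differed by 0.04. Kcnq5, of the same current, ranged from 10.68 to 11.03 in Ctrl and 10.74 to 11.18 in Exp and differed by 0.09 (SE 0.14). Kcnh2, the ERG channel, was among the most even members and ranged from 11.10 to 11.34 in Ctrl and 11.25 to 11.36 in Exp, a difference of 0.07 (SE 0.11, 95% confidence interval -0.17 to 0.32). Kcnh1 and Kcnh8 differed by 0.03 (SE 0.11) and 0.10 (SE 0.14).

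The calcium-activated and sodium-activated potassium channel genes, grouped by symbol and counting the BK relative Kcnu1, had 5 of 11 higher and 6 lower. Their median was -0.02. In all 11 the interval lay within a doubling and a halving, beside 75.4% of all genes. Of the 11, 8 lay above the low-signal mark and 3 below, where 94% and 31.7% of all genes had such an interval. Kcnma1 encodes the pore of the BK channel, opened by calcium and voltage together. Its values were 10.36, 11.10, 10.72 and 10.69 in Ctrl 1 to 4 and 10.70, 10.96, 10.48 and 10.40 in Exp 1 to 4, a difference of -0.08 (SE 0.19, 95% confidence interval -0.53 to 0.37). The BK beta subunits Kcnmb2 and Kcnmb4, which tune its calcium response, ranged from 14.99 to 15.18 in Ctrl and 14.82 to 15.29 in Exp and from 13.30 to 13.57 in Ctrl and 13.37 to 13.55 in Exp. They differed by -0.02 (SE 0.13) and 0.01 (SE 0.11). All 3 BK genes thus had overlapping groups in their brightest probe sets. The 5 probe sets of Kcnma1 ran from -0.40 to 0.40.

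The small-conductance genes Kcnn1, Kcnn2 and Kcnn3 differed by 0.07 (SE 0.24), 0.13 (SE 0.18) and 0.01 (SE 0.19), and the sodium-activated channels Kcnt1 and Kcnt2 by 0.03 (SE 0.19) and -0.09 (SE 0.20). Kcnn4, the intermediate-conductance channel also known from red blood cells, had values of 11.67, 11.72, 11.58 and 10.82 in Ctrl 1 to 4 and 11.50, 11.90, 10.97 and 11.10 in Exp 1 to 4, a difference of -0.08 (SE 0.28, 95% confidence interval -0.72 to 0.56). The other Kcnn4 probe set differed by 0.69, in the opposite direction. Erythroid markers had 4 of 9 genes higher and 5 lower in Exp, with summed signals of 90719 to 114946 in Ctrl and 107624 to 123987 in Exp. Hbb-y alone gave 84005 to 101950 of these sums in Ctrl and 97400 to 114284 in Exp. The part of erythroid RNA in the Kcnn4 signal was not tested. Kcnu1, a BK relative known from sperm, had values of 10.26, 10.41, 10.13 and 10.34 in Ctrl 1 to 4 and 10.05, 10.03, 9.86 and 10.14 in Exp 1 to 4. Exp 4 alone lay above the lowest Ctrl array, Ctrl 3, and the difference was -0.27 (SE 0.12, 95% confidence interval -0.54 to 0.01) (limma, unadjusted p = 0.0535, adjusted p = 0.997). Of the RNAs opposite Kcnmb4, Kcnmb4os2 had 10.97, 10.96, 11.02 and 10.45 in Ctrl 1 to 4 and 10.77, 10.25, 10.70 and 10.22 in Exp 1 to 4, a difference of -0.37 (SE 0.19), while Kcnmb4os1 differed by 0.46 (SE 0.34).

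Of 15 inward rectifier genes, 9 were higher and 6 lower in Exp, with a median of 0.13, and 10 lay below the low-signal mark. An unadjusted p under 0.05 by limma was found in 3 of the 15, or 20%, beside 3.99% of all genes. All 3 were among the 10 below the mark, where the background over all genes was 7.35%. The family was singled out after its values were seen and was not tested. Kcnj5 encodes a subunit of the G-protein-gated channels that slow firing on activation of inhibitory receptors. Its values were 6.95, 5.14, 6.88 and 6.29 in Ctrl 1 to 4 and 7.56, 7.38, 7.52 and 8.01 in Exp 1 to 4. The groups did not overlap, with Exp higher, and Ctrl 2 was the lowest. The means were 6.31 ± 0.84 in Ctrl and 7.62 ± 0.27 in Exp (SD, n = 4 each). The difference was 1.31 (SE 0.39, 95% confidence interval 0.39 to 2.22), or 2.47-fold in normalized signal + 16. It did not pass limma's test (unadjusted p = 0.0110, adjusted p = 0.997). Without Ctrl 2 the difference was 0.92, and the gene's other probe set gave 0.65 (SE 0.49). 

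Kcnj4, a strong rectifier of the Kir2 family, had values of 7.66, 7.82, 7.75 and 7.84 in Ctrl 1 to 4 and 8.13, 8.05, 8.26 and 8.78 in Exp 1 to 4. The groups did not overlap, and Exp 4 was the highest array. The means were 7.77 ± 0.08 in Ctrl and 8.30 ± 0.33 in Exp (SD, n = 4 each), a difference of 0.53 (SE 0.17, 95% confidence interval 0.14 to 0.93) that did not pass limma's test (unadjusted p = 0.0150, adjusted p = 0.997). Without Exp 4 the difference was 0.38. Kcnj13, the Kir7.1 channel of epithelia that move ions, had values of 7.72, 7.96, 7.03 and 8.16 in Ctrl 1 to 4 and 8.47, 8.52, 8.33 and 8.14 in Exp 1 to 4. Ctrl 4 lay just above the lowest Exp array, Exp 4, and the difference was 0.65 (SE 0.25, 95% confidence interval 0.08 to 1.21) (limma, unadjusted p = 0.0303, adjusted p = 0.997). Epithelial markers had 8 of 10 genes higher in Exp, with summed signals of 6201 to 7136 in Ctrl and 5107 to 10882 in Exp, highest in Exp 2 and Exp 3, and their part in Kcnj13 was not tested. Kcnj13 differed by 0.42 without Ctrl 3, and its unadjusted p was over 0.05 with trend and robust variances, without Ctrl 1, Exp 1, Exp 2 or Exp 3, and without both Exp 2 and Exp 3.

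**Figure D3:**
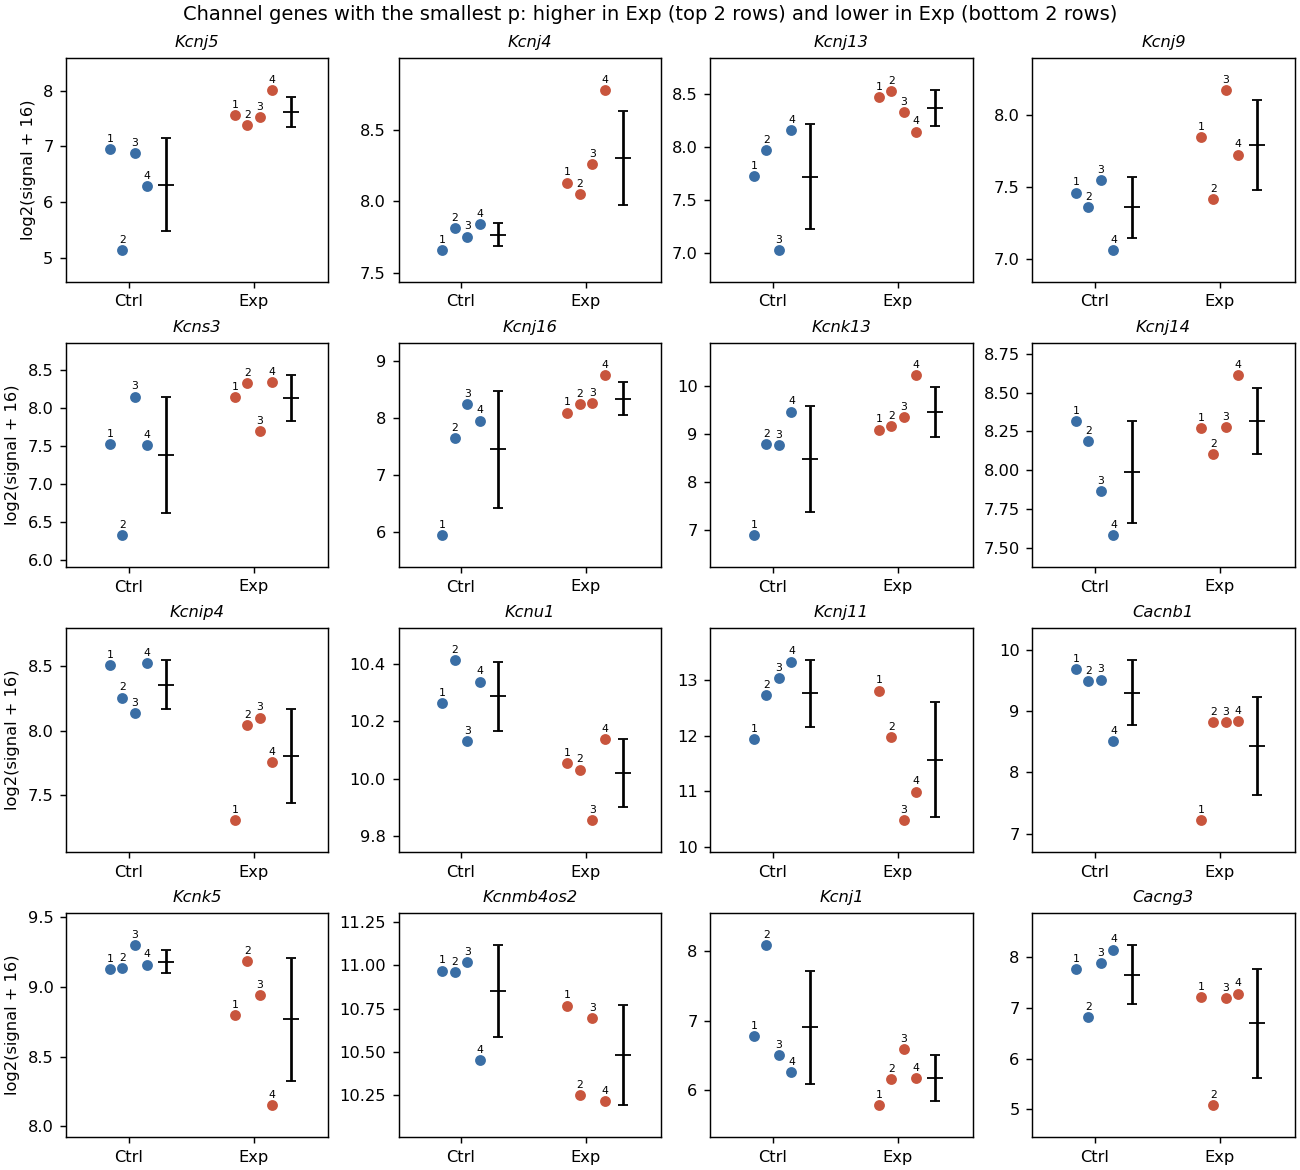
Values of log2(signal + 16) by array for the 8 channel genes with the smallest p among those higher in Exp and the 8 among those lower in Exp, 1 point per array with its number and the mean ± SD of 4 arrays beside it. Each panel has its own axis, which does not start at 0. Groups are apart in Kcnj5, Kcnj4 and Kcnip4, and overlap in the other 13.

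The other rectifiers higher in Exp overlapped with Ctrl. Kcnj9, a further G-protein-gated subunit, had 7.46, 7.36, 7.55 and 7.06 in Ctrl 1 to 4 and 7.85, 7.42, 8.17 and 7.72 in Exp 1 to 4, a difference of 0.43 (SE 0.19) (limma, unadjusted p = 0.0513). Kcnj16, which forms channels with Kcnj10, had 7 arrays between 7.65 and 8.76 and Ctrl 1 at 5.95, a difference of 0.89 (SE 0.48), or 0.39 without Ctrl 1. The 4 probe sets of Kcnj9 ran from -0.25 to 0.49, and the other probe set of Kcnj16 differed by -0.01. Kcnj14 ranged from 7.58 to 8.32 in Ctrl and 8.10 to 8.61 in Exp and differed by 0.33 (SE 0.19), or by 0.20 without Ctrl 4. The G-protein-gated genes did not share a direction in their brightest probe sets. Kcnj3, with which Kcnj5, Kcnj6 and Kcnj9 form channels, ranged from 10.59 to 11.20 in Ctrl and 10.85 to 11.26 in Exp and differed by 0.16 (SE 0.17), and Kcnj6 differed by -0.19 (SE 0.23).

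Kcnj11, the pore of the ATP-sensitive channel that links metabolism to excitability, varied more within groups than all members above the low-signal mark but Kcne4, Kcna7 and Kcnk13. Its values were 11.94, 12.74, 13.04 and 13.34 in Ctrl 1 to 4 and 12.82, 11.97, 10.49 and 10.997 in Exp 1 to 4. The highest array was Ctrl 4 and the lowest Exp 3, and Exp 1 and Exp 2 lay within the Ctrl range. The means were 12.76 ± 0.60 in Ctrl and 11.57 ± 1.04 in Exp (SD, n = 4 each), a difference of -1.20 (SE 0.53, 95% confidence interval -2.42 to 0.03) (limma, unadjusted p = 0.0546, adjusted p = 0.997). Its other probe set, at lower signal, differed by 0.38 (SE 0.18), in the opposite direction. Abcc8 and Abcc9, the sulfonylurea receptor subunits of this channel, ranged from 9.18 to 9.55 in Ctrl and 9.24 to 9.70 in Exp and from 10.92 to 11.32 in Ctrl and 10.57 to 11.58 in Exp. They differed by 0.07 (SE 0.14) and -0.01 (SE 0.24), and neither followed the order of the arrays seen for Kcnj11. Kcnj1, a rectifier best known from kidney, ranged from 6.26 to 8.09 in Ctrl and 5.78 to 6.59 in Exp and differed by -0.73 (SE 0.40), or by -0.34 without Ctrl 2, which stood at 8.09.

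Kcnj10 encodes Kir4.1, the potassium uptake channel of satellite glia. Its values were 9.98, 10.15, 9.79 and 9.97 in Ctrl 1 to 4 and 9.46, 10.11, 9.69 and 9.70 in Exp 1 to 4. Exp 1 was the lowest array and Exp 2 lay near the highest Ctrl array, with a difference of -0.23 (SE 0.16, 95% confidence interval -0.61 to 0.14) (limma, unadjusted p = 0.190). Glia markers were lower in Exp in 12 of 13 genes, as given above. By limma 0 passed the threshold and 3, or 23.1%, had an unadjusted p under 0.05, beside 3.99% of all genes. These were Egr2, which drives Schwann cell myelination, at -2.66 (SE 1.03), Plekhb1 at -0.53 (SE 0.17) and Gfap at -0.55 (SE 0.22). The groups overlapped in all 13 glia markers, and Gfap lay below the low-signal mark. Egr2 was 9.15 in Ctrl 2, against 12.37 to 13.23 in the other Ctrl arrays and 7.355 to 11.04 in Exp. Fabp7, of satellite glia, was the 1 not lower, at 0.02 (SE 0.09). The part of glial RNA in the Kcnj10 value was not tested. Kcnj10 differed by -0.14 without Exp 1 and by -0.36 without Exp 2.

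Kcnj8, which with Abcc9 forms the ATP-sensitive channel of pericytes and smooth muscle, had values of 9.98, 10.35, 10.20 and 10.52 in Ctrl 1 to 4 and 9.73, 9.96, 9.75 and 10.49 in Exp 1 to 4, a difference of -0.28 (SE 0.21, 95% confidence interval -0.75 to 0.19), or -0.45 without Exp 4. Rgs5 and Pdgfrb, markers of mural cells, differed by -0.30 (SE 0.24) and -0.10 (SE 0.24), and of the 12 endothelial and mural markers 5 were higher and 7 lower. The listed genes Cspg4, Acta2 and Tagln differed by -0.20 (SE 0.29), 0.90 (SE 0.615) and 0.23 (SE 0.37). Of the 12, Cdh5 alone, or 8.33%, had an unadjusted p under 0.05, beside 3.99% of all genes. Cdh5 differed by 0.63 (SE 0.12) with groups apart (limma, unadjusted p = 0.000633, adjusted p = 0.518). The summed signal of that list was 16245 to 24863 in Ctrl and 18548 to 27016 in Exp. The highest sum was in Exp 3, where Acta2 alone gave 16017. Exp 3 was the lowest array for Rgs5 and Pdgfrb, and for Kcnj8 it was next to the lowest, Exp 1. Whether the number of mural cells bears on Kcnj8 was not tested.

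**Figure D4:**
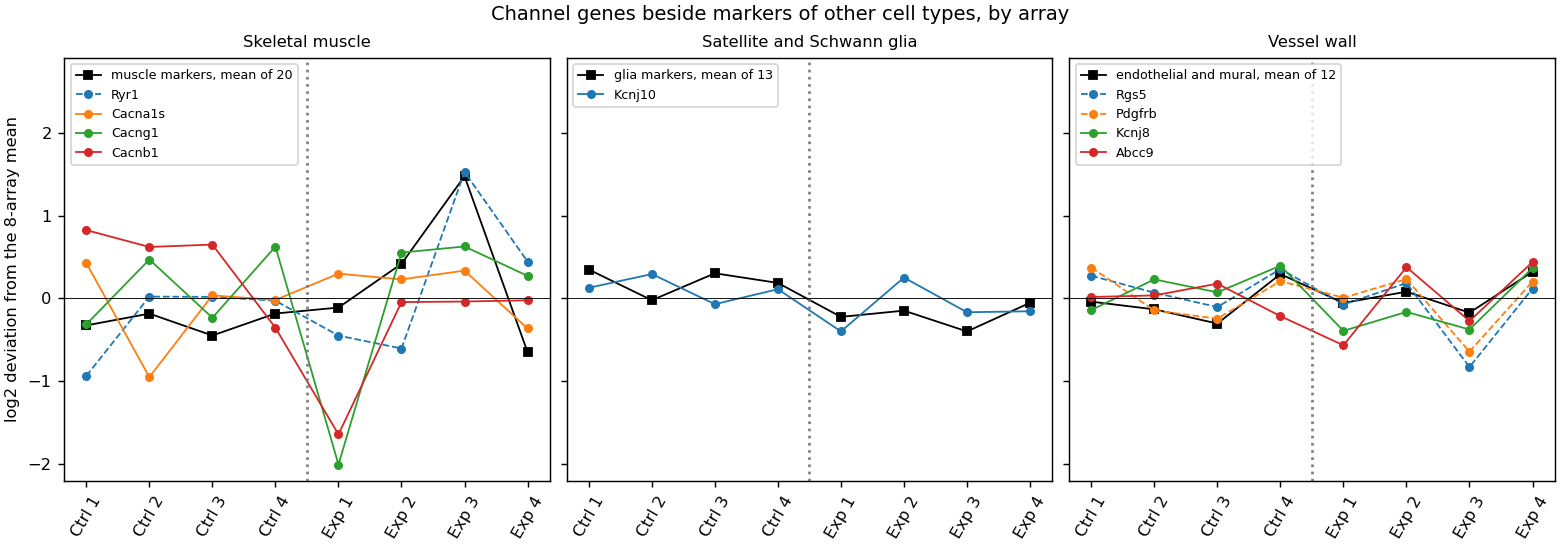
Channel genes beside markers of skeletal muscle, glia and vessel wall, as log2 deviation from the 8-array mean of each gene or of the mean over each marker list, by array. Muscle markers peak in Exp 3 at 1.47. Cacng1 has its highest value there, at 7.890 against 7.889 in Ctrl 4, and Cacna1s its highest but 1, both below the low-signal mark. Cacnb1, at 8.83 in Exp 3, lies below its values in Ctrl 1 to 3 and Exp 4.

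Channels of the K2P family, which carry the leak current at rest, had 6 of 12 genes higher and 6 lower, with a median of -0.02. Kcnk2, the TREK-1 channel opened by stretch and heat, had values of 11.48, 11.77, 11.61 and 11.55 in Ctrl 1 to 4 and 11.49, 12.20, 11.72 and 11.60 in Exp 1 to 4. Exp 2 was the highest array, the others overlapped, and the difference was 0.15 (SE 0.17, 95% confidence interval -0.25 to 0.55). Its relative Kcnk10, TREK-2, ranged from 11.36 to 11.84 in Ctrl and 11.08 to 11.85 in Exp and differed by 0.03 (SE 0.20). Kcnk13 had values of 6.89, 8.79, 8.77 and 9.47 in Ctrl 1 to 4 and 9.09, 9.16, 9.36 and 10.23 in Exp 1 to 4, with Ctrl 1 far below the rest and Exp 4 the highest, and differed by 0.98 (SE 0.54, 95% confidence interval -0.27 to 2.24), or by 0.45 without Ctrl 1. Kcnk5, TASK-2, ranged from 9.13 to 9.30 in Ctrl and 8.15 to 9.19 in Exp and differed by -0.41 (SE 0.22), or by -0.21 without Exp 4. Neither passed limma's test, with unadjusted p of 0.108 and 0.0934. With the probe sets of a gene averaged, Kcnk13 had an unadjusted p under 0.05 by limma and groups apart, but was not called.

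Both measured HCN genes overlapped between groups. Hcn2, a subunit strongly modulated by cyclic AMP and known for its role in pain, had values of 8.99, 8.71, 8.94 and 9.22 in Ctrl 1 to 4 and 8.82, 9.29, 8.36 and 9.002 in Exp 1 to 4, a difference of -0.10 (SE 0.21, 95% confidence interval -0.59 to 0.40). Hcn3 had values of 10.48, 9.54, 10.34 and 10.08 in Ctrl 1 to 4 and 10.49, 9.79, 9.99 and 9.42 in Exp 1 to 4, a difference of -0.19 (SE 0.28, 95% confidence interval -0.84 to 0.46). Pex5l, the auxiliary subunit of HCN channels, differed by 0.23 (SE 0.20).

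Of the 9 calcium channel alpha1 genes, 7 were higher and 2 lower in Exp, with a median of 0.09. In all 9 the interval lay within a doubling and a halving, beside 75.4% of all genes. That background is not matched for signal: 8 of the 9 lay above the low-signal mark, where 94% of all genes had such an interval. Cacna1b encodes the N-type channel of sensory nerve terminals. Its values were 14.08, 14.33, 14.24 and 14.07 in Ctrl 1 to 4 and 14.24, 14.25, 14.40 and 14.34 in Exp 1 to 4, a difference of 0.13 (SE 0.11, 95% confidence interval -0.13 to 0.38), and 3 other probe sets differed by 0.03 to 0.16. Cacna1e, the R-type channel, ranged from 13.74 to 14.08 in Ctrl and 13.85 to 14.25 in Exp and differed by 0.12 (SE 0.14). Cacna1h, the T-type channel of low-threshold mechanoreceptors, had values of 11.83, 11.97, 11.90 and 11.85 in Ctrl 1 to 4 and 11.93, 11.75, 12.002 and 12.23 in Exp 1 to 4, with Exp 4 the highest, and differed by 0.09 (SE 0.13, 95% confidence interval -0.21 to 0.39). The other Cacna1h probe set, below the low-signal mark, differed by -0.25 (SE 0.22), in the opposite direction. The T-type gene Cacna1g differed by -0.23 (SE 0.20).

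The L-type genes Cacna1c and Cacna1d, whose channels couple activity to transcription, differed by 0.27 (SE 0.16) and 0.09 (SE 0.15). Their second probe sets differed by -0.11 (SE 0.26) and -0.41 (SE 0.16), in the opposite direction. Cacna1c had values of 10.54, 10.31, 10.35 and 10.15 in Ctrl 1 to 4 and 10.69, 10.90, 10.54 and 10.28 in Exp 1 to 4, with Exp 2 the highest array, without which the difference was 0.17. Cacna1a, the P/Q-type channel of presynaptic terminals, had values of 10.33, 10.33, 9.81 and 9.60 in Ctrl 1 to 4 and 10.49, 10.04, 9.30 and 10.31 in Exp 1 to 4 in its brightest probe set. Both groups spread over most of the range, with a difference of 0.02 (SE 0.29, 95% confidence interval -0.66 to 0.70), and this changed sign in 5 of the alternative fits. With its probe sets averaged, the groups were apart and the unadjusted p by limma was under 0.05.

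Cacna1s, Cacng1 and Cacnb1 encode subunits of the skeletal muscle calcium channel, which is coupled to the release channel Ryr1. Cacna1s had values of 7.88, 6.50, 7.49 and 7.43 in Ctrl 1 to 4 and 7.75, 7.68, 7.79 and 7.09 in Exp 1 to 4, a difference of 0.25 (SE 0.31, 95% confidence interval -0.46 to 0.96). Cacng1 had values of 6.95, 7.73, 7.03 and 7.89 in Ctrl 1 to 4 and 5.26, 7.82, 7.89 and 7.54 in Exp 1 to 4, a difference of -0.28 (SE 0.59, 95% confidence interval -1.65 to 1.10). Muscle markers as a list were 1.47 log2 units above their mean in Exp 3, and Ryr1 stood at 9.63 there and between 7.17 and 8.55 in the other arrays. In Exp 3 Cacng1 was 7.89, its highest value though close to Ctrl 4, and Cacna1s was 7.79, below Ctrl 1 and above the other arrays. Both lay below the low-signal mark in all 8 arrays, and the part of muscle RNA in their values was not tested.

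Cacnb1 also serves neurons, and its brightest probe set had values of 9.69, 9.49, 9.51 and 8.51 in Ctrl 1 to 4 and 7.22, 8.82, 8.83 and 8.84 in Exp 1 to 4. Exp 1 was far below the others, and the other 3 Exp arrays lay above Ctrl 4 and below Ctrl 1 to 3. The means were 9.30 ± 0.53 in Ctrl and 8.43 ± 0.80 in Exp (SD, n = 4 each), a difference of -0.87 (SE 0.43, 95% confidence interval -1.87 to 0.12), which did not pass limma's test (unadjusted p = 0.0781, adjusted p = 0.997) and was -0.47 without Exp 1. Its 3 other probe sets differed by 0.01, -0.09 and 0.47. The beta subunits Cacnb2 and Cacnb4 differed by -0.31 (SE 0.64) and 0.00 (SE 0.10).

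The alpha2delta subunits carry calcium channels to the membrane, and Cacna2d1 is a target of gabapentin. Cacna2d1 had values of 14.25, 14.48, 14.29 and 14.35 in Ctrl 1 to 4 and 14.57, 14.48, 14.38 and 14.21 in Exp 1 to 4, a difference of 0.07 (SE 0.12, 95% confidence interval -0.21 to 0.35). Cacna2d2 had values of 15.83, 15.81, 15.78 and 15.72 in Ctrl 1 to 4 and 15.18, 15.61, 15.80 and 15.50 in Exp 1 to 4, and only Exp 3 lay within the Ctrl range, a difference of -0.26 (SE 0.15, 95% confidence interval -0.60 to 0.08) (limma, unadjusted p = 0.114, adjusted p = 0.997). Its 2 other probe sets differed by -0.56 and 0.47. The 5 probe sets of Cacna2d1 ran from -0.52 to 0.34. Cacna2d3 differed by -0.16 (SE 0.15).

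The gamma subunit genes had 3 of 8 members higher and 5 lower, with a median of -0.20. Cacng2, stargazin, which carries AMPA receptors to synapses, had values of 9.63, 9.50, 9.28 and 9.83 in Ctrl 1 to 4 and 9.27, 9.41, 9.82 and 9.01 in Exp 1 to 4, a difference of -0.19 (SE 0.20, 95% confidence interval -0.65 to 0.28). The 3 probe sets of Cacng2 ran from -0.19 to 0.10. Cacng5 had values of 12.998, 13.07, 13.15 and 12.98 in Ctrl 1 to 4 and 13.16, 13.16, 11.96 and 12.48 in Exp 1 to 4. Its 4 Ctrl arrays with Exp 1 and Exp 2 lay close together and Exp 3 and Exp 4 lay lower, a difference of -0.36 (SE 0.27). Kcnj11 had its lowest values in the same 2 arrays. Cacng3 ranged from 6.82 to 8.14 in Ctrl and 5.09 to 7.28 in Exp, with Exp 2 far below the rest, and differed by -0.96 (SE 0.54), or by -0.43 without Exp 2.

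Genes of proteins that partner these channels gave no calls either. Of 41 listed, 39 were measured, 21 were higher and 18 lower in Exp, the median was 0.02 and 0 reached an unadjusted p of 0.05 by limma, beside 3.99% of all genes. The smallest p belonged to Lrrc52 and Lrrc38, auxiliary subunits of BK-type channels, at 0.72 (SE 0.34) and 0.85 (SE 0.47), and, among lower ones, to Lgi3 at -0.30 (SE 0.19) and Stac2, a regulator of L-type channels, at -0.36 (SE 0.24). Leaving out 1 array took Lrrc52 to 0.39 and Lrrc38 to 0.51 (without Ctrl 3), Lgi3 to -0.18 (without Exp 1) and Stac2 to -0.16 (without Exp 4). Dpp6, the Kv4 auxiliary subunit, differed by -0.05 (SE 0.10), and Cntnap2 and Cntn2, which place Kv1 channels beside the node, by 0.00 (SE 0.13) and 0.07 (SE 0.16).

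Different probe sets of a channel gene often disagreed. Of 63 members with over 1 probe set, all probe sets had the same sign in 19, or 30.2%, beside 38.6% of all genes with over 1 probe set. Among the 109 probe sets that were not the brightest of their gene, 9 had an unadjusted p under 0.05 by limma, or 8.26%, beside 5.27% of such probe sets of all genes, and in 6 the groups did not overlap, or 5.5%, beside 2.57%. These backgrounds are not matched for signal, and 105 of the 218 member probe sets lay above the low-signal mark. By brightest probe set, 7.35% of all genes below the mark and 2.56% of those above had such a p. The excess was not tested. Among all 218 member probe sets the share with p under 0.05 was 5.96%, beside 4.93% overall.

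The smallest of these p belonged to a dim probe set of Cacna1a, with values of 6.40, 5.91, 4.85 and 5.49 in Ctrl 1 to 4 and 7.07, 6.80, 7.32 and 7.68 in Exp 1 to 4. Its groups did not overlap, and the difference was 1.56 (SE 0.34, 95% confidence interval 0.76 to 2.35) (limma, unadjusted p = 0.00196, adjusted p = 0.785). A second Cacna1a probe set differed by 0.40 (SE 0.12) with groups apart, whereas the brightest differed by 0.02 (SE 0.29) and the remaining one by -0.01 (SE 0.26). In Kcnj6 2 probe sets pointed opposite ways with groups apart in both, 0.57 (SE 0.16) and -0.93 (SE 0.33). One of the 5 of Kcnma1 differed by -0.40 (SE 0.12), and one of the 3 of Kcna6 by -0.61 (SE 0.18), each with groups apart. Single probe sets of Cacna2d1, Cacna1d and Kcnj3 differed by -0.52 (SE 0.17), -0.41 (SE 0.16) and -0.39 (SE 0.15), with groups that overlapped. In each of these genes the brightest probe set had an unadjusted p over 0.05. With the probe sets of a gene averaged, Cacna1a had an unadjusted p under 0.05 by limma and groups apart, but was not called.

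**Figure D5:**
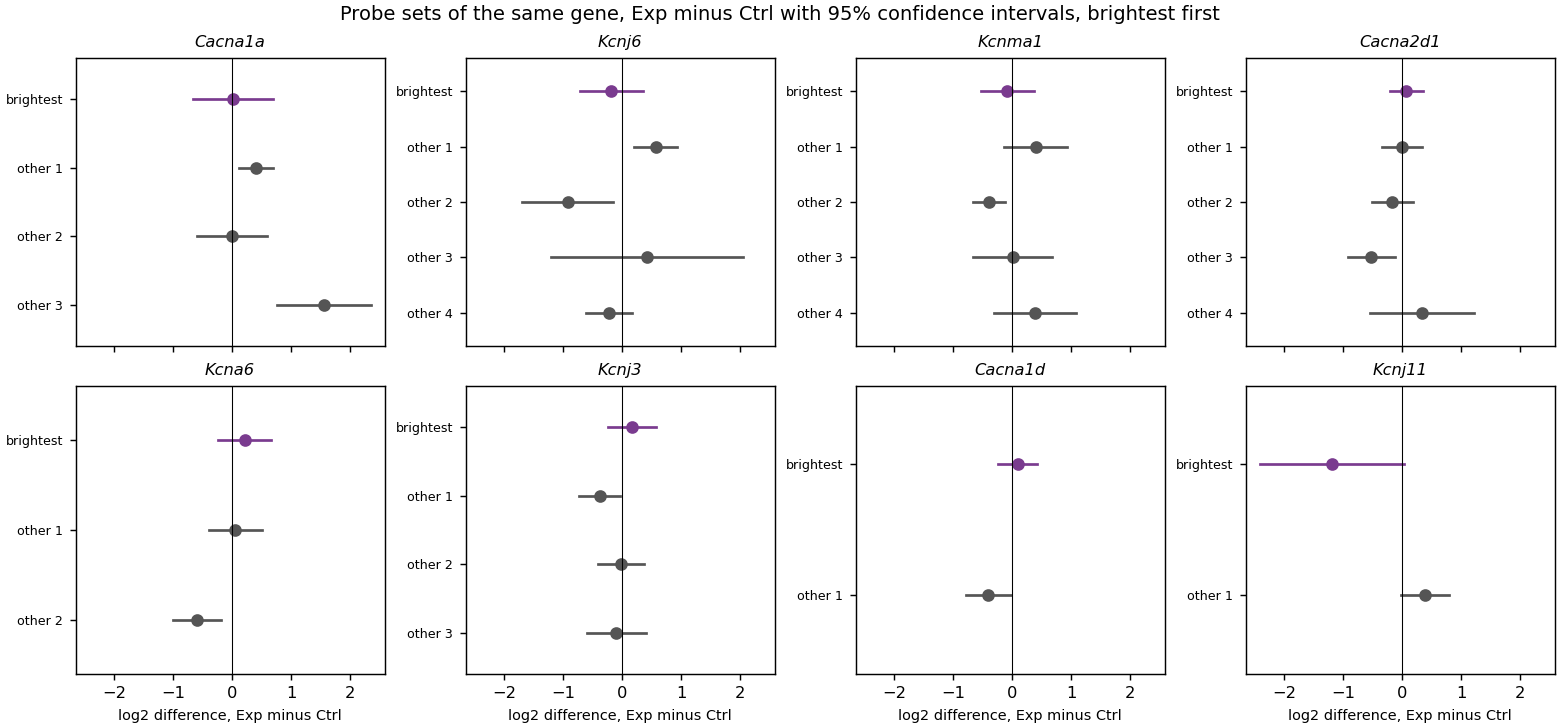
Difference between Exp and Ctrl in log2 units for each probe set of 8 channel genes, with its 95% confidence interval, the brightest probe set in purple and the others in grey in order of falling signal. The dimmest probe set of Cacna1a, at 1.56, lies far from its brightest, at 0.02, and a pair of Kcnj6 probe sets lie on opposite sides of 0.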

How the data were processed

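The deposited table gives an intensity per probe set on a linear scale. The method by which the authors summarised probes and scaled arrays was not given in the sources used here. Per array, the mean after trimming 2% at both ends was 2500, and medians ran from 478 to 553. The deposited signals therefore share a common trimmed mean. The differences reported here were taken after quantile normalization and refer to a common distribution of values. The 64 control probe sets were left out. Values were taken as log2(signal + 16), quantile normalized (array medians had differed by up to 0.203 log2 units) and tested with limma 3.58.1 (lmFit, eBayes, two-sided, R 4.3.3) over all 45037 probe sets without a filter, with Benjamini-Hochberg adjustment and a 5% false discovery rate. A filter at the 40th percentile is an alternative, since it drops members. Gene names came from the platform annotation, and all 109 matched the RefSeq gene table of GRCm38.p6 by identifier. All columns were mapped to samples.

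The members, gene lists and tests were chosen with earlier results of these data known. Named genes are the 8 members with the smallest p per direction, 27 named by function, of which 5 were not analysed, and 2 partners per direction; others were chosen after their values were seen. No list was tested as a list, and nothing beside the limma test carries a p. On simulated data with 200 of 45037 probe sets changed, limma called 6 unchanged ones and found 0% of changes of 0.5 log2 units, 16% of changes of 1, 44% of 1.5 and 54% of 2. Figures were drawn with matplotlib 3.10.9.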

Additional observations from a re-analysis of the deposited data

Results flagged for a closer look

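In each group of 4 arrays of the 40 named genes, the highest or lowest array was set against the gap to its nearest neighbour, and a gap over 0.829 of the whole range was noted. For independent, normally distributed values about 1 in 20 groups would be noted. Of 80 groups 10 were noted, against about 4 at that rate, and over all members 18 of 218, against about 10.9. The share over all genes on these arrays is not given here. Whether such groups are more frequent among channel genes than among other genes was therefore not tested.

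In Exp 1, Cacnb1 was 7.22 against 8.82 to 8.84 in the other Exp arrays, Kcnq3 was 9.95 against 10.64 to 10.75, and Cacng1 was 5.26 against 7.54 to 7.89. In Exp 2, Cacng3 was 5.09 against 7.19 to 7.28. In Exp 3, the partner gene Lrrc52 was 7.24 against 7.65 to 7.71. In Exp 4, Cacna1s was 7.09 against 7.68 to 7.79. In Ctrl 2, Kcna1 was 13.67 against 13.37 to 13.42 and Kcnd3 was 12.25 against 11.71 to 11.77. In Ctrl 4, Kcnn4 was 10.82 against 11.57 to 11.72 and Kcnmb4os2 was 10.45 against 10.96 to 11.02. Exp 1 held 3 of the 10 and was also the lowest of the 8 arrays for 24 of the 109 members, or 22%, beside 13.4% of all genes.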

How the results depend on the processing

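No member probe set was called in any alternative fit of the probe sets (pseudocounts of 1 and 64, filters, no quantile normalization, median centring, a replicate block, trend and robust variances, array weights, 1 array left out), nor without both Exp 2 and Exp 3, a setting chosen after seeing the data. The smallest adjusted p of a named gene in any of them was 0.686. The members with an unadjusted p under 0.05, 4 in the reported fit, numbered 2 with a filter at the 40th and 2 at the 60th percentile, which drop those 4 genes for low signal and take in Kcnj11 and Kcnu1 (backgrounds of 3.73% and 3.36%). They numbered 7 with a replicate block (background 3.7%), which loses Kcnip4, 3 with trend and robust variances (4.01%), where Kcnj5 alone of the 4 is left beside Cacna2d2 and Cacnb1, and 4 to 7 without 1 array. Members whose groups were apart, 3 as reported, numbered 0 and 0 with those filters, 4 to 8 without 1 array and 13 without both Exp 2 and Exp 3, where the background was 12.3%. Kcnip4 was no longer among them without quantile normalization (Kcnj13, Kcnj4 and Kcnj5) or with median centring (Kcna5, Kcnj4, Kcnj5 and Kcnu1). With the probe sets of a gene averaged, the members apart were Cacna1a, Kcnj4, Kcnj5 and Kcnk13. Those with an unadjusted p under 0.05 were the same genes with Kcnj13 and Kcnu1, and none of them was called. The backgrounds of that setting are not given here. The replicate numbers did not pair the arrays: arrays of the same number had deviations correlated at -0.02, 0.01, -0.02 and -0.04, and of the Ctrl arrays only Ctrl 2 correlated best with its own number.

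Of 722 values of the 40 named genes under the alternatives 32 changed sign, in 16 genes. With probe sets of a gene averaged, the difference was -0.0926 for Kcns3, 0.12 for Kcna1, -0.28 for Kcna2, 0.16 for Kcnd3, 0.061 for Kcnma1, 0.30 for Kcnn4, -0.0804 for Cacna1h, -0.0587 for Cacna2d1, 0.0011 for Cacng2 and 0.0351 for Lgi3. With median centring it was -0.0027 for Cacna1a. Without both Exp 2 and Exp 3 it was -0.0121 for Kcna2, 0.0681 for Kcnd3 and -0.0575 for Kcnk2. Without 1 array it ran from -0.0757 to 0.0552 for Kcna1, -0.13 to 0.12 for Kcnd3, -0.20 to 0.0459 for Kcnma1, -0.29 to 0.0511 for Kcnn4, -0.0237 to 0.44 for Cacna1s, -0.13 to 0.26 for Cacna1a, -0.25 to 0.96 for Kcng4, -0.53 to 0.35 for Cacng1 and -0.24 to 0.0712 for Hcn2. The cause of these reversals was not tested.

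Precision is lowest for the 43 members below the 40th percentile of signal, whose median standard error was 0.37. Over all probe sets, simulated data gave 16% of changes of 1 log2 unit. The labels settle neither the treatment nor the tissue, nor whether replicates are separate animals.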

Other observations

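Several channel genes lie next to each other among the protein-coding genes of the mouse assembly GRCm38.p6, and 13 such neighbouring pairs were measured. In 8 of the 13 pairs both genes differed in the same direction, and in 5 in opposite directions. Kcnj5, at 1.31 (SE 0.39), lies next to Kcnj1, at -0.73 (SE 0.40), and Kcnj9, at 0.43 (SE 0.19), next to Kcnj10, at -0.23 (SE 0.16). In the row of gamma subunit genes Cacng1, Cacng4 and Cacng5 the differences were -0.28 (SE 0.59), -0.21 (SE 0.22) and -0.36 (SE 0.27), and in the row Cacng7, Cacng8 and Cacng6 they were 0.20 (SE 0.31), 0.25 (SE 0.23) and 0.42 (SE 0.41). None of these genes passed limma's test, and no test was made of the pairs.

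Across member genes the mean correlation between arrays was 0.954 within groups and 0.952 between groups. The summed deposited signal of the members' brightest probe sets was 292831 to 304517 in Ctrl and 282040 to 311413 in Exp.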
